A study of Mus musculus with 15 samples.

Results

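The mitochondrial ribosomal proteins were taken as every probe of the deposited intensity table whose gene symbol begins with Mrpl or Mrps followed by a digit. This gave 105 of the 25697 probes on the array, for 72 of its 18138 gene symbols. Of these, 99 probes were detected in at least 3 of the 14 arrays with a leukemia label, and they stood for 69 of the 10474 genes tested, 42 named for the large subunit and 27 for the small. Mrpl21, Mrpl35 and Mrps14 did not pass that filter, because their probes were detected on no labelled array or on 1 (Mrpl35, on the undifferentiated array).

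Mitochondria hold their own ribosomes, which translate the few messages of the mitochondrial genome into core subunits of the respiratory chain and of ATP synthase. The RNAs of the mitochondrial ribosome are encoded in mitochondrial DNA, while all of its proteins are encoded in the nucleus, made in the cytosol and imported. Some of these proteins descend from bacterial ribosomal proteins and keep their numbers, and others were added in the mitochondrial lineage. The symbols Mrpl and Mrps stand for the large and the small subunit, although the products of Mrps30 and Mrps18a sit in the large one. Erythroid cells depend on mitochondria for heme synthesis and lose these organelles as they mature.

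RNA came from unsorted single-cell suspensions of mouse spleen and was measured on Illumina bead arrays after whole-transcriptome amplification with a NuGEN kit for small inputs. All mice were labelled as a model of Cbx7 overexpression, where Cbx7 is a chromobox protein of polycomb repressive complex 1, and no mouse without it was analysed here. The groups were 1 mouse with undifferentiated leukemia (mouse 4-3), 4 mice with erythroid leukemia (mice 2-3, 5-5, 2-3-2 and 2-3-3) and 7 mice with T-cell leukemia (mice 2, 5, 4-1, 2-2, 5-1, 4-2 and 5-3). The labels give neither the age or strain of the mice nor what drives Cbx7, and they do not say what the numbers in the mouse names mark. Mice that share a first number may therefore not be independent, and a p-value then covers only the spread between these mice. In such bulk samples, fewer cells of a type and less RNA per cell cannot be told apart.

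Some facts of the whole series touch the values below. The undifferentiated array detected 11699 probes, the erythroid arrays 7382 to 12605 and the T-cell arrays 11278 to 12944. The 2 lowest were both erythroid, with 7382 probes for mouse 5-5 (second array) and 7554 for mouse 2-3-2, and are called the 2 weakest arrays here. The 2 arrays of erythroid mouse 5-5 correlated at r = 0.834 over the genes tested, and those of T-cell mouse 5-1, the other mouse with 2 arrays, at r = 0.972. The mean log2 signal over 7 erythroid markers was 8.93 in the undifferentiated mouse, 9.53 to 10.33 in the erythroid mice and 4.78 to 9.18 in the T-cell mice, and over 6 T-cell markers it was 5.52, 4.96 to 6.23 and 7.68 to 9.93 in the same order of groups. The erythroid and T-cell mice were separated by these markers in the direction of their labels, while the mouse labelled undifferentiated had erythroid markers close to the erythroid range (Klf1 at 9.81 against an erythroid mean of 9.62) and T-cell markers as low as in the erythroid mice. The spleens of some T-cell mice held erythroid transcripts at levels near those of the erythroid mice. The Cbx7 probe itself was detected on 0 of 1 undifferentiated, 0 of 5 erythroid and 2 of 8 T-cell arrays, at a log2 signal of 4.37 to 5.08, so these arrays do not show the overexpression that the labels give.

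Promoters of nuclear genes for mitochondrial proteins are known to carry sites of ETS factors such as GABP, of NRF1 and of YY1. RefSeq promoter windows (mouse build GRCm38.p6, 250 bases before to 50 after the annotated start) were matched by symbol for 63 of the 72 members. The letters searched on both strands were CCGGAAG for the ETS family, the known NRF1 motif, and AAGATGG for YY1. A gene was counted where any of its windows held the letters. CCGGAAG was found in 24 of the 63 members (38.1%), against 20.6% of the 7935 tested genes with a window. Over all 27025 genes with a window the share was 9.93%. The NRF1 letters were in 11 members (17.5%, against 11.2% of these tested genes and 5.19% of all), and the YY1 letters in 12 (19%, against 8.29% and 7.28%). No searched motif was found in 24 members (38.1%, against 65.3% and 80%). Of the 4 members that passed the test below, 3 had a window, and these are printed because they are the members that changed, on the strand of the gene with the matches in capitals.
Mrps7, chr11:115603890-115604189, plus strand: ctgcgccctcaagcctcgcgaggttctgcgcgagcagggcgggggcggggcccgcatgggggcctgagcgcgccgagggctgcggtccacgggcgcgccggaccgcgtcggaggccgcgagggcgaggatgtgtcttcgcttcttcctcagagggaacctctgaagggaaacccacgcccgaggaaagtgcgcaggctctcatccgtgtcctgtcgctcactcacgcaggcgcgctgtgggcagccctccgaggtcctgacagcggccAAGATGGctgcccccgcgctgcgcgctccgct
Mrpl53, chr6:83108858-83109157, plus strand: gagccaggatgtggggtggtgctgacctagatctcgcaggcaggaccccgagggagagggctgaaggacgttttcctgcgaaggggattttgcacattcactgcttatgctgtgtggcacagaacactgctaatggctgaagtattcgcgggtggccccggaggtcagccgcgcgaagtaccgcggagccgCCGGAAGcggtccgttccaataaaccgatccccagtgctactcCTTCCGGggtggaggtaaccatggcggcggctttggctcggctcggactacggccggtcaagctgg
Mrpl51, chr6:125191950-125192249, plus strand: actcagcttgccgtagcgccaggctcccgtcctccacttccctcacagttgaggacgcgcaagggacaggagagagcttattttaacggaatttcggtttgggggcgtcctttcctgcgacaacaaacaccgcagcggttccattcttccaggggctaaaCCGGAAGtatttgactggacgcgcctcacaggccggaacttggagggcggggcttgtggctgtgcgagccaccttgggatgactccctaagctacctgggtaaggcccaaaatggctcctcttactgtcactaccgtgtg
The Mrps7 window held the YY1 letters once, just after the start. The Mrpl53 window held the ETS letters once on each strand, and the Mrpl51 window once. A match is a description of these letters only. The median erythroid minus T-cell change (log2) was -0.05 over the 23 tested members with the ETS letters and 0.05 over the 37 without, 0.26 over 11 with the NRF1 letters and -0.02 over 49 without, and -0.19 over 11 with the YY1 letters and 0.03 over 49 without.

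The members as a group were at similar levels in the 3 leukemia types, and the erythroid mice differed from each other more than the T-cell mice did. The mean log2 signal over the 69 members was 7.75 in the undifferentiated mouse, 7.59 ± 0.35 in the erythroid mice (SD, n = 4) and 7.58 ± 0.16 in the T-cell mice (SD, n = 7). Among erythroid mice it was 7.85 in mouse 2-3, 7.30 in 5-5, 7.29 in 2-3-2 and 7.94 in 2-3-3. Both erythroid mice that had an array among the 2 weakest were at the low end, and the other erythroid mice were above every T-cell mouse, whose values ran from 7.26 in mouse 5-3 to 7.75 in mouse 5-1. The undifferentiated mouse was level with the highest T-cell mouse.

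**Figure D1:**
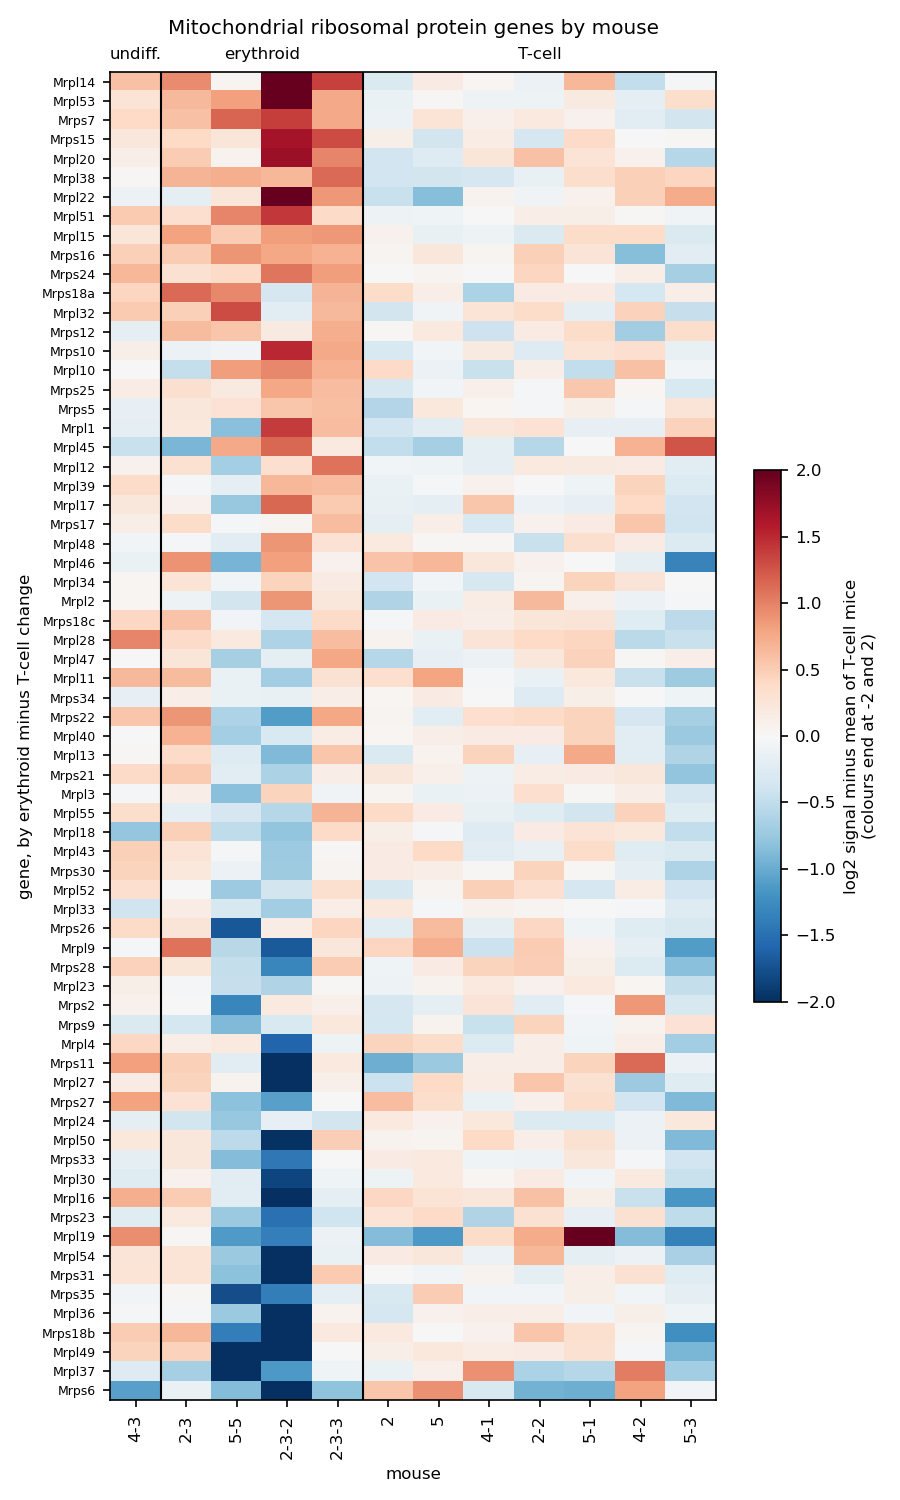
Heat map of the 69 members (rows, ordered by erythroid minus T-cell change) in the 12 mice (columns; undifferentiated, erythroid, T-cell). Colour gives the log2 signal minus the mean of the T-cell mice, with colours ending at -2 and 2; mouse 2-3-2 stands out in both directions, with 21 members more than 1 below and 12 more than 1 above the T-cell mean.

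The widest scatter was in mouse 2-3-2. In it 21 members lay more than 1 log2 unit below the T-cell mean and 12 more than 1 above, from -3.24 for Mrps18b to 2.32 for Mrpl22. A second Mrps18b probe read 6.87 in this mouse, above every T-cell mouse. The SD of the members' deviations was 1.34 in mouse 2-3-2 and 0.73 in mouse 5-5, against 0.38 in mouse 2-3, 0.42 in mouse 2-3-3 and 0.28 to 0.47 in the T-cell mice. Over all genes the SD was 1.36 in mouse 2-3-2, so wide scatter there was not limited to the ribosomal proteins. In the other erythroid mice the all-gene SD was 0.80 (mouse 2-3), 1.04 (5-5) and 0.87 (2-3-3). The members thus scattered less than all genes in those mice and about as much in mouse 2-3-2. In the undifferentiated mouse the members' SD was 0.38 and that of all genes 0.84.

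The 2 arrays of erythroid mouse 5-5 showed a similar scatter within 1 mouse. The members averaged 7.59 on its first array and 7.00 on its second, which was one of the 2 weakest. On the second array 48 members were lower and 21 higher, and 31 of 69 (44.9%) differed by more than 1 log2 unit, against 33.8% of all genes. The 2 arrays of T-cell mouse 5-1 averaged 7.80 and 7.69 and differed by more than 1 for 1 member (1.45%, against 2.86% of all genes). Of the 21 members more than 1 below the T-cell mean in mouse 2-3-2, 19 were also lower on the second array of mouse 5-5 (90.5%, against 77.1% for all genes chosen the same way), and of the 12 more than 1 above, 8 were higher (66.7%, against 70.2%). In these members the 2 weakest arrays, from different mice, thus mostly departed from the other arrays in the same direction. These weakest arrays detected 48 (mouse 5-5) and 52 (mouse 2-3-2) of the 69 members, against 67 to 69 on the other erythroid arrays and 65 to 69 on the T-cell arrays. Every member was detected on the undifferentiated array.

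**Figure D2:**
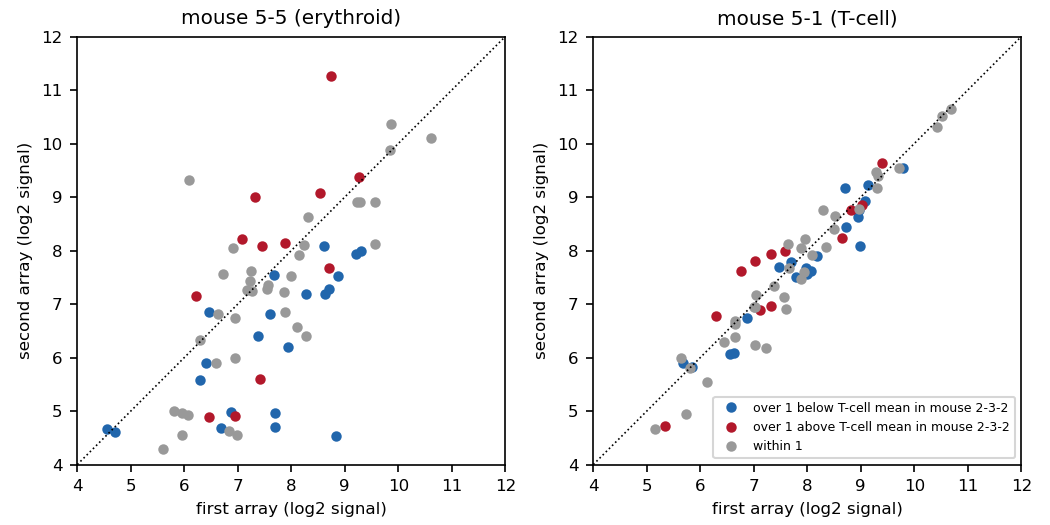
Log2 signal of the 69 members on the second array (y axis) against the first (x axis) of erythroid mouse 5-5 and of T-cell mouse 5-1; each point is a gene and the dotted line marks equal values. Blue and red mark the members more than 1 below or above the T-cell mean in mouse 2-3-2; for mouse 5-5 the blue points lie mostly below the line, and for mouse 5-1 all colours lie close to it.

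Mouse 5-3 was the lowest T-cell mouse for 38 of 69 members, while it was the lowest for 20.4% of all genes. Its mean over 5 markers of dividing cells was 7.22, the lowest of the T-cell range of 7.22 to 8.73, and mouse 2-3-2 had the lowest of the erythroid range, 8.01 of 8.01 to 8.88. The undifferentiated mouse had 8.30. Among the other marker lists, mouse 5-3 was at the top of the T-cell range for B-cell markers (6.39, with a lowest value of 4.5), and mouse 2-3-2 was the lowest erythroid mouse for erythroid (9.53), macrophage (5.36) and neutrophil (5.37) markers. The part of these cells in the members' levels was not tested.

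Between erythroid and T-cell leukemias, 4 of the 69 genes rose and none fell, and for 65 no difference passed the test (limma, Benjamini-Hochberg adjusted p under 0.05 over 10474 genes). The genes that rose were Mrps7, Mrpl53, Mrpl51 and Mrpl15, by 0.76 to 1.07 on the log2 scale, with the probes of Mrpl53 and Mrpl15 near background. None of the 4 passed with the first title number as a replicate block (limma adjusted p from 0.105 to 0.161) or after median scaling (limma adjusted p from 0.0537 to 0.624). With arrays as samples and the mouse as a random block only Mrpl51 did (0.80, limma adjusted p = 0.0328). With the description number added to that array-level fit as a block, none did (limma adjusted p from 0.0506 to 0.257). The 4 genes make up 5.8% of the members, against 10.3% of all genes called in either direction, 3.86% called higher and 6.41% called lower, so the share of members called higher was near the background. At an unadjusted p under 0.05, 10 members were higher and 3 lower, which is 18.8% of members against 28.1% of all genes (12.2% higher and 15.9% lower). The median change over the members was -0.04 on the log2 scale, beside -0.03 over all genes. The quartiles of the members were -0.39 and 0.42, and the full range was -1.02 to 1.17. Only 3 members (4.35%) differed by more than 1 on the log2 scale, against 17.2% of all genes.

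The 42 large-subunit genes held 3 of the 4 that rose, with a median change of -0.01, and the 27 small-subunit genes held 1, with a median of -0.05. Over the 41 genes whose number follows a bacterial ribosomal protein (up to L36 and S21) 2 rose and the median was 0.14. Over the 28 with higher numbers, mostly proteins added in mitochondria, 2 rose and the median was -0.11. The difference between these classes was not tested.

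Mrps7 encodes the relative of bacterial protein S7, which binds ribosomal RNA in the head of the small subunit. Its probe read 9.44, 10.01, 10.24 and 9.60 in erythroid mice 2-3, 5-5, 2-3-2 and 2-3-3, against 8.48 at the lowest, 8.94 at the median and 9.13 at the highest of the T-cell mice. Every erythroid mouse was above every T-cell mouse, and the undifferentiated mouse, at 9.25, lay between them. The erythroid mean was 9.82 ± 0.37 (SD, n = 4) and the T-cell mean 8.85 ± 0.23 (SD, n = 7), a change of 0.98 ± 0.22 (log2, SE), or 1.97 fold (limma adjusted p = 0.0186). The call depended on the weakest arrays. The 2 arrays of mouse 5-5 read 8.75 and 11.27, the first of them inside the T-cell range, and without the 2 weakest arrays the change was 0.42 (limma adjusted p = 0.282). A second Mrps7 probe (ILMN_2981821) went the other way, at 7.52, 5.89, 4.60 and 7.99 in the same erythroid mice, with a change of -0.34 (limma adjusted p = 0.697). With the mean of both probes the Mrps7 change was 0.32 (limma adjusted p = 0.455). Without mouse 5-5 it was 0.91 (limma adjusted p = 0.058), and without any 1 other mouse it passed.

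Mrpl53 encodes a large-subunit protein that bacteria lack. Its probe gave 5.50, 5.67, 6.89 and 5.60 in the erythroid mice in the same order, against 4.65, 4.75 and 5.20 as the lowest, median and highest T-cell mice. No T-cell mouse reached the lowest erythroid mouse, and the undifferentiated mouse read 5.13. The means were 5.92 ± 0.66 in erythroid mice (SD, n = 4) and 4.85 ± 0.20 in T-cell mice (SD, n = 7), and the change was 1.07 ± 0.27 (log2, SE; limma adjusted p = 0.0285). The probe was dim, detected on 4 of 5 erythroid and 3 of 8 T-cell arrays, so the T-cell values lie close to background and the size of the change depends on how background is handled. It was 0.62 with an offset of 50 (limma adjusted p = 0.0449) and 0.37 with no background correction (limma adjusted p = 0.0544). The 2 arrays of mouse 5-5 read 6.47 and 4.88. Without the 2 weakest arrays the Mrpl53 change was 1.00 (limma adjusted p = 0.0327). It no longer passed without erythroid mouse 5-5 (1.15, limma adjusted p = 0.0549) or without T-cell mouse 2 (1.04, 0.0597), 5 (1.07, 0.058) or 4-2 (1.03, 0.0563).

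Mrpl15 encodes the relative of bacterial L15, a protein of the large subunit. Its probe gave 5.79, 5.49, 5.81 and 5.84 in the erythroid mice, against a lowest, median and highest T-cell value of 4.69, 4.88 and 5.35. The types did not overlap, and the undifferentiated mouse read 5.22. The means were 5.73 ± 0.16 in erythroid mice (SD, n = 4) and 4.98 ± 0.28 in T-cell mice (SD, n = 7), a change of 0.76 ± 0.21 (log2, SE; limma adjusted p = 0.0381). This probe was also dim, detected on 3 of 5 erythroid and 5 of 8 T-cell arrays, and the Mrpl15 change was 0.42 with an offset of 50 (limma adjusted p = 0.045) and 0.24 with no background correction (limma adjusted p = 0.0664). Without the 2 weakest arrays the Mrpl15 change was 0.93 (limma adjusted p = 0.0289). It no longer passed without any 1 of the erythroid mice or without T-cell mouse 2, 5, 4-1 or 5-3, with changes of 0.71 to 0.84 (limma adjusted p from 0.0569 to 0.0858).

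Mrpl51 encodes another large-subunit protein without a bacterial relative. The erythroid mice read 7.36, 8.01, 8.45 and 7.42, and the T-cell mice 6.93 at the lowest, 7.03 at the median and 7.17 at the highest. The T-cell mice lay in a narrow band below all erythroid mice, and the undifferentiated mouse, at 7.55, was above that band. The means were 7.81 ± 0.52 in erythroid mice (SD, n = 4) and 7.03 ± 0.10 in T-cell mice (SD, n = 7), a change of 0.78 ± 0.23 (log2, SE) or 1.72 fold (limma adjusted p = 0.0493). Tested on their own, the other Mrpl51 probes changed by 0.99 (limma adjusted p = 0.043) and 0.19 (limma adjusted p = 0.788), so all 3 had the same sign. With the mean of the 3 probes the Mrpl51 change was 0.65 and did not pass (limma adjusted p = 0.105). Without the 2 weakest arrays the Mrpl51 change was 0.53 (limma adjusted p = 0.091). It passed without erythroid mouse 2-3 (0.93, limma adjusted p = 0.027), but not without any 1 of the other mice, with changes of 0.57 to 0.91 (limma adjusted p from 0.0502 to 0.121).

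**Figure D3:**
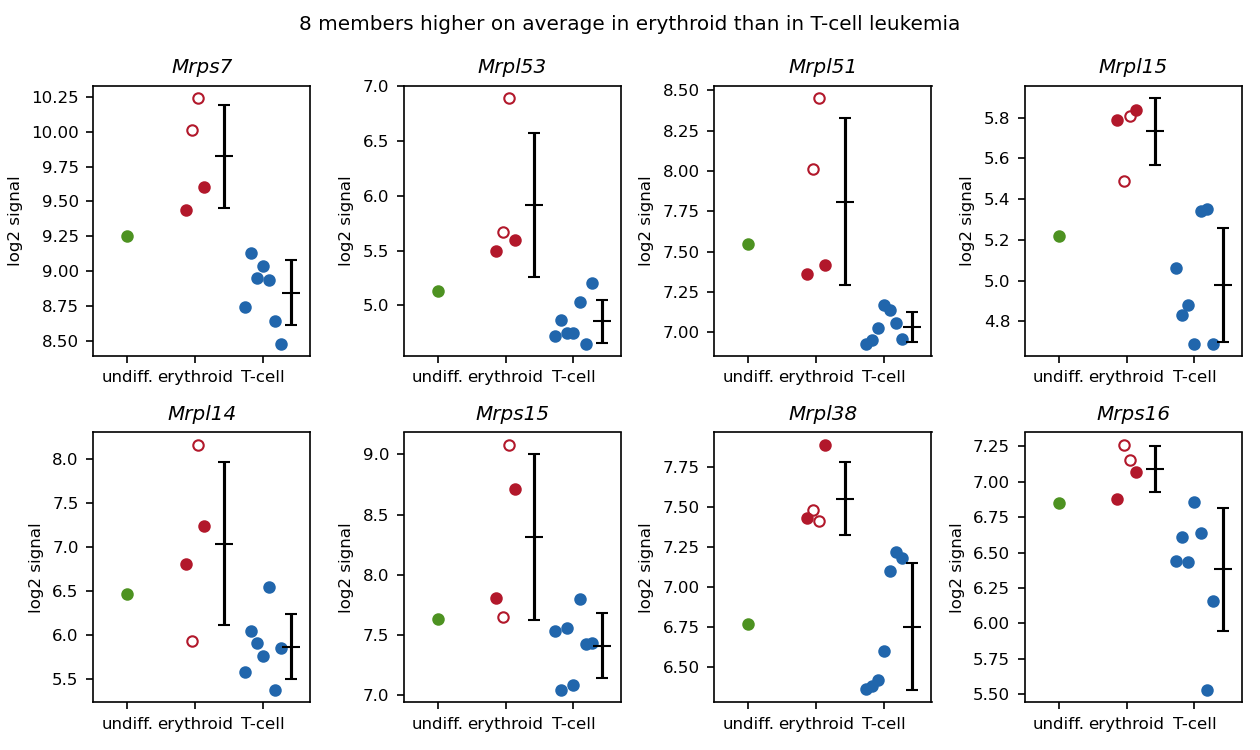
Log2 signal per mouse (y axis) of 8 members in undifferentiated, erythroid and T-cell leukemia; points are mice, open points are erythroid mice with an array among the 2 weakest (5-5 and 2-3-2), and bars give the mean ± SD. Mrps7, Mrpl53, Mrpl51 and Mrpl15 in the upper row passed the test; in the lower row the types overlap for Mrpl14 and Mrps15 and do not for Mrpl38 and Mrps16.

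In 6 members every erythroid mouse was above every T-cell mouse, and in none was every erythroid mouse below; such a gap was found upward in 2.52% and downward in 4.68% of all genes. Besides the 4 that passed, these were Mrpl38 and Mrps16. Mrpl38, a large-subunit protein gene, had 7.43, 7.48, 7.41 and 7.89 in the erythroid mice against 6.36 to 7.22 in the T-cell mice, a change of 0.80 (limma adjusted p = 0.0565). Mrps16, whose product is related to bacterial S16, had 6.88, 7.26, 7.15 and 7.07 against 5.53 to 6.86, a change of 0.71 (limma adjusted p = 0.0894). Without T-cell mouse 5-1 the Mrpl38 change was 0.86 and passed (limma adjusted p = 0.0487). Mrps16 is named only for this gap, after its values were seen. Mrpl38 was also named by rule, for its undifferentiated minus erythroid difference.

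The largest positive changes that did not pass were those of Mrpl14, Mrps15, Mrpl20 and Mrpl22, all relatives of bacterial proteins. Mrpl14, at the face where the subunits meet, had the largest change of all members, 1.17 ± 0.36 (log2, SE; limma adjusted p = 0.057). Its erythroid values of 6.81, 5.93, 8.16 and 7.24 overlapped the T-cell range of 5.37 to 6.54 through mouse 5-5, whose arrays read 6.95 and 4.91. Without the 2 weakest arrays the Mrpl14 change was 1.13 and passed (limma adjusted p = 0.0255), and it also passed without erythroid mouse 5-5 (1.54, limma adjusted p = 0.0268) and without T-cell mouse 5-1 (1.28, limma adjusted p = 0.0407). Mrps15, of the small subunit, changed by 0.90 (limma adjusted p = 0.0647), Mrpl20 by 0.82 (limma adjusted p = 0.117) and Mrpl22, which lines the tunnel for the growing protein chain, by 0.80 (limma adjusted p = 0.247). Without the 2 weakest arrays these changes were smaller, at 0.46 for Mrps15, 0.50 for Mrpl20 and 0.20 for Mrpl22. Mrps15 passed without erythroid mouse 2-3 (1.07, limma adjusted p = 0.0395). Mouse 2-3-2 had the highest value of any mouse in all 4 of these genes.

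The largest negative changes were those of Mrps6, Mrpl37, Mrpl49 and Mrps18b, and none passed. Mrps6, related to bacterial S6, read 6.67, 5.94, 4.54 and 6.01 in the erythroid mice against 5.83, 6.75 and 7.73 as the lowest, median and highest T-cell mice, a change of -1.02 (limma adjusted p = 0.171). Mrpl37 changed by -1.0 (limma adjusted p = 0.154) and Mrpl49 by -0.96 (limma adjusted p = 0.215), and both encode large-subunit proteins that bacteria lack. The other Mrpl49 probes past the filter changed by -0.27, -0.12 and 0, and the other Mrpl37 probe by 0.55. In Mrps18b, 1 of 3 mammalian relatives of bacterial S18, the change was -0.94 (limma adjusted p = 0.334), with erythroid values of 8.38, 6.33, 4.48 and 7.92 and a T-cell range of 6.50 to 8.27. The erythroid values thus straddled the T-cell range, and the low ones came from mice 5-5 and 2-3-2. A second Mrps18b probe read 5.20, 4.87, 6.87 and 6.01 in the same erythroid mice, against 5.18 to 5.88 in the T-cell mice. On that probe mouse 2-3-2 was thus the highest, and the change was 0.28 (limma adjusted p = 0.615). Without erythroid mouse 2-3, Mrps35 was the only member to pass downward, at -1.12 (limma adjusted p = 0.0409), and it was named for this after its values were seen. Without the 2 weakest arrays the change turned positive in Mrpl49 (0.20) and Mrps18b (0.28), and was -0.45 in Mrpl37 and -0.48 in Mrps6. On the first and second array of mouse 5-5, Mrpl49 read 8.84 and 4.53, Mrpl37 7.70 and 4.71, and Mrps18b 7.69 and 4.97.

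Leaving out the 2 weakest arrays moved the members as a group. With them, 33 members had a positive and 36 a negative erythroid minus T-cell change (47.8% positive, beside 48.3% of all genes). Without them, 52 were positive and 17 negative (75.4%, beside 49% of all genes), and the median change was 0.23, beside -0.01 over all genes. Both subunits moved: 32 of 42 large-subunit genes and 20 of 27 small-subunit genes were positive, with medians of 0.22 and 0.23. The sign of the change turned positive in 24 members and negative in 5. The changes then ran from -0.48 for Mrps6 to 1.13 for Mrpl14, and the 3 members that passed, all higher, were Mrpl14, Mrpl53 and Mrpl15, with 5.64% of all genes called. After median scaling in place of quantile normalisation, the median over members was -0.29 beside -0.22 over all genes, with 23.2% of members and 33.2% of all genes positive. With cyclic loess normalisation on all arrays, the median over members was 0.07, beside 0 over all genes. In that case 59.4% of members and 50.4% of all genes were positive. The sign of the members' median thus changed with the arrays used and with the normalisation. Median scaling kept the sign and moved all genes the same way.

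**Figure D4:**
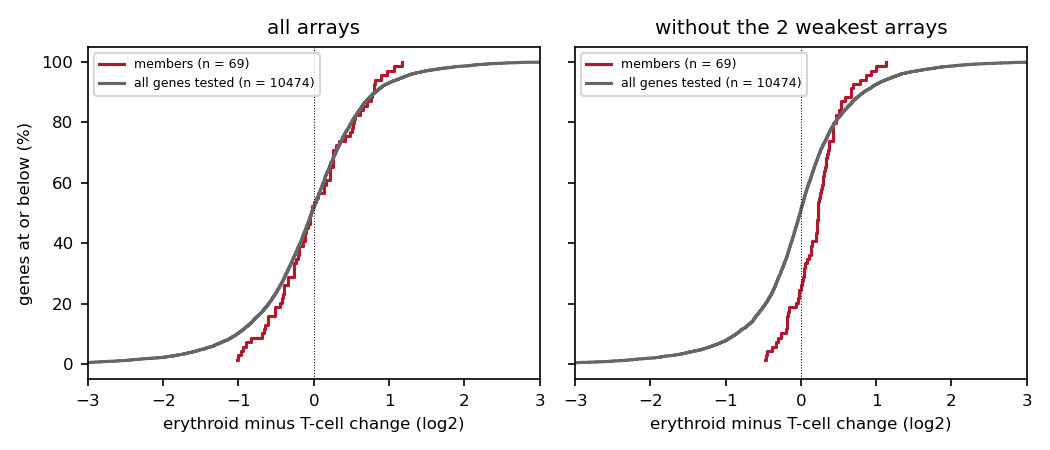
Cumulative share of genes (y axis, percent) at or below each erythroid minus T-cell change (x axis, log2) for the 69 members (red) and all 10474 genes tested (grey), with all arrays at left and without the 2 weakest arrays at right. With all arrays both curves cross zero near the middle; without the weakest arrays the member curve lies to the right, with a median of 0.23 against -0.01 for all genes.

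The last number of the sample descriptions ran from 1 to 16. What this number stands for is not given, and it was treated as a possible batch by splitting 1 to 8 from 9 to 16. Within 1 to 8 there were 2 erythroid and 5 T-cell arrays, and within 9 to 16 there were 3 erythroid arrays, among them the 2 weakest, and 3 T-cell arrays. The median member change was 0.07 within 1 to 8 and -0.16 within 9 to 16. Mrps7 changed by 0.12 within 1 to 8 and by 1.71 within 9 to 16, Mrpl53 by 1.10 and 0.94, Mrpl51 by 0.55 and 1.01, and Mrpl15 by 0.89 and 0.53. All 4 kept a positive sign in both, and no member passed in either (limma adjusted p from 0.124 to 0.83 for these 4 genes). With so few arrays, 0% of all genes were called within 1 to 8 and 1.71% within 9 to 16, so these counts say little about the members.

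Several members had more than 1 probe past the filter, and their probes often differed in sign. Of 20 such genes, the probes had the same sign in 5 and both signs in 15 (erythroid minus T-cell), and none had probes that passed in opposite directions. Mrps33 had 2 probes with changes of -1.12 and -0.51, and Mrpl37 had one at -1.0 and one at 0.55. In Mrpl48 the 5 probes ran from -0.36 to 0.22.

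Some members stayed close to level across the types. Mrps34, a small-subunit protein gene, read 10.39, 10.11, 10.10 and 10.38 in the erythroid mice against 9.99, 10.25 and 10.42 as the lowest, median and highest T-cell mice, and 10.09 in the undifferentiated mouse. Its change was 0.00 ± 0.18 (log2, SE; limma adjusted p = 0.998), and its SD was 0.16 among erythroid (n = 4) and 0.14 among T-cell mice (n = 7). The brightest member probes were those of Mrps18c, Mrpl23 and Mrps34, and the dimmest those of Mrpl53, Mrpl15 and Mrpl55. These ranks describe the probes, not the amounts of the transcripts. Mrps18c, another S18 relative, changed by 0.14 (limma adjusted p = 0.735) and Mrpl23, a protein at the exit of the tunnel, by -0.26 (limma adjusted p = 0.445). The dim Mrpl55 probe changed by -0.10 (limma adjusted p = 0.834).

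The median SD of a member was 0.66 among the erythroid mice and 0.36 among the T-cell mice, beside 0.57 and 0.41 over all genes. Among T-cell mice the SDs ran from 0.10 to 1.59, and Mrpl19, Mrps6 and Mrpl37 varied most. Mrpl19, related to bacterial L19, had an SD of 1.59, with 1 mouse far above the rest: it read 8.94 in mouse 5-1 and 4.44 to 6.53 in the other T-cell mice. Both arrays of mouse 5-1 were high for Mrpl19, at 8.70 and 9.17. The Mrpl19 probe was detected on 4 of 8 T-cell and 2 of 5 erythroid arrays, so its low readings lie close to background. The erythroid mice read 5.82, 4.65, 4.42 and 5.67 and the undifferentiated mouse 6.72. Mrpl37 had 9.22 and 9.34 in T-cell mice 4-1 and 4-2 and 7.62 to 8.41 in the others (SD 0.72, n = 7). Undifferentiated mouse 4-3, which shares their first number, read 8.05. Mrps6 had an SD of 0.79 (n = 7), with mice 5, 4-2 and 2 at 7.73, 7.61 and 7.37 and mice 2-2 and 5-1 at 5.86 and 5.83.

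**Figure D5:**
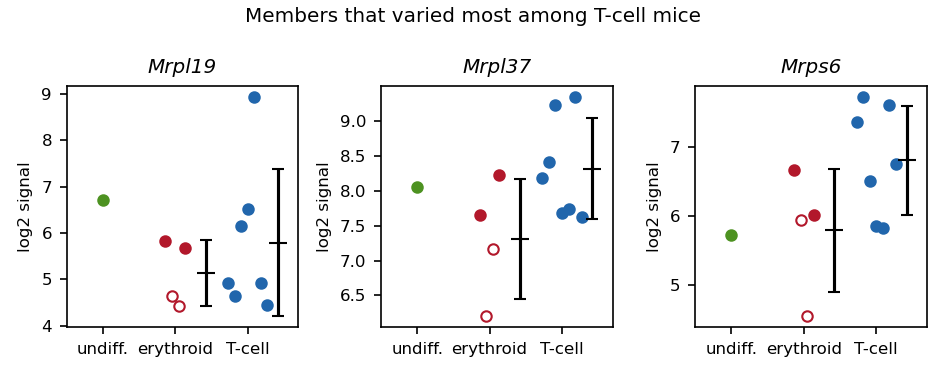
Log2 signal per mouse (y axis) of Mrpl19, Mrpl37 and Mrps6, the members with the largest SD among T-cell mice, in undifferentiated, erythroid and T-cell leukemia; open points are erythroid mice with an array among the 2 weakest, and bars give the mean ± SD. Mouse 5-1 stands alone at 8.94 for Mrpl19, while Mrps6 and Mrpl37 spread over the whole T-cell range.

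In the single undifferentiated leukemia the members were on average near the levels of the other types. No member passed in the undifferentiated minus T-cell or the undifferentiated minus erythroid contrast (limma adjusted p under 0.05), where 0.0191% and 0.00955% of all genes were called, and at an unadjusted p under 0.05 the count of members was 0 in both, against 7.2% and 4.67% of all genes (2.83% higher and 4.37% lower in the first, 3.1% higher and 1.57% lower in the second). Both contrasts assume that this mouse varies like the mice of the other types, and both share mice with the erythroid minus T-cell comparison. The median over members was 0.16 in undifferentiated minus T-cell, beside 0.02 over all genes, with 45 of 69 positive (65.2%, beside 51.8%). It was 0.04 in undifferentiated minus erythroid, beside 0.02, with 38 positive (55.1%, beside 51.2%).

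Against the T-cell mice, the largest differences in the undifferentiated mouse were in Mrpl28, Mrpl19 and Mrps11 upward and Mrps6, Mrpl18 and Mrpl45 downward. Mrpl28, related to bacterial L28, read 8.54 in the undifferentiated mouse and 7.03 to 8.00 in the T-cell mice, and was above all of them (0.97 ± 0.49, log2 and SE; limma adjusted p = 0.755). Mrps6 read 5.73, below the T-cell minimum of 5.83, a difference of -1.08 (limma adjusted p = 0.993). Mrpl18, related to bacterial L18, read 8.59 against 8.87 to 9.63, a difference of -0.76 (limma adjusted p = 0.911). Mrpl45, which ties the ribosome to the inner membrane, differed by -0.44, and Mrpl19 and Mrps11 by 0.93 and 0.82 (limma adjusted p = 0.999 for each).

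Against the erythroid mice, the largest were 1.58 for Mrpl19, 1.44 for Mrps18b and 1.41 for Mrpl49 upward, and -0.91 for Mrpl22, -0.79 for Mrpl53 and -0.78 for Mrpl38 downward (limma adjusted p = 0.938 for each). Mrps18b and Mrpl49 had low values on the 2 weakest arrays, where Mrps18b read 4.48 in mouse 2-3-2 against 8.22 in the undifferentiated mouse. On the second Mrps18b probe these mice read 6.87 and 6.05. Mrpl19 was low on both arrays of mouse 5-5, at 4.71 and 4.60, and in most T-cell mice, with a median of 4.92. Such readings lie close to background, and the size of its difference rests partly on them.

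Other genes of mitochondrial translation were set beside the ribosomal proteins as lists, and with all arrays their directions were mixed. The list values include the weakest arrays, and leaving those arrays out moved the members as a group. How far the list medians depend on the weakest arrays was not tested. In none of 6 lists did a gene pass between erythroid and T-cell leukemia (limma adjusted p under 0.05), against the 10.3% of all genes. Of ribosomal subunits with other names, 6 of 8 were tested, with a median change of 0.09. At an unadjusted p under 0.05, 1 gene was higher (16.7%, beside 12.2% of all genes). This was Ptcd3, a small-subunit protein of the pentatricopeptide family, with 8.93 ± 0.98 in erythroid mice (SD, n = 4) against 7.75 ± 0.39 in T-cell mice (SD, n = 7) and a change of 1.18 (limma adjusted p = 0.0627). Mrpl57 changed by -0.83 (limma adjusted p = 0.369).

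Of translation factors, 11 of 15 were tested, with a median of 0.17. No gene had an unadjusted p under 0.05, against 28.1% of all genes. The smallest p-values were those of the release factor Mtrf1l, at -0.56 (limma adjusted p = 0.228), and the initiation factor Mtif2, at -0.77 (limma adjusted p = 0.316). Of genes for ribosome assembly and RNA modification, 14 of 27 were tested, with a median of 0.21. At an unadjusted p under 0.05 there was 1 (7.14%, against 28.1% of all genes). This was Mterf4, the partner of the RNA methylase Nsun4, at 0.66 (limma adjusted p = 0.143), followed by the methylase Mrm3 at 0.84 (limma adjusted p = 0.187).

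Of aminoacyl-tRNA synthetases of mitochondria, 14 of 17 were tested, with a median of 0.16. At an unadjusted p under 0.05 there was 1 (7.14%, against 28.1% of all genes). Fars2 changed by 0.77 (limma adjusted p = 0.156) and Lars2 by 0.47 (limma adjusted p = 0.221), and they charge the tRNAs for phenylalanine and leucine. Of genes for copying, transcribing and processing mitochondrial DNA and RNA, 19 of 24 were tested, with a median of -0.01. At an unadjusted p under 0.05, 1 was lower (5.26%, against 15.9% of all genes). Hsd17b10, a subunit of mitochondrial RNase P, changed by -0.74 (limma adjusted p = 0.161) and the DNA helicase Twnk by 0.63 (limma adjusted p = 0.178).

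The list of regulators of nuclear genes for mitochondria had the lowest median, -0.51 over 8 of 10 genes tested, with the weakest arrays included. At an unadjusted p under 0.05, 2 genes were lower (25%, beside 15.9% of all genes). These were the nuclear receptor Esrra, at -0.74 (limma adjusted p = 0.133), and Yy1, the factor whose letters were searched in the promoters, at -0.77 (limma adjusted p = 0.136). The coactivator Ppargc1b read 4.48, close to background, in the undifferentiated mouse against 6.66 ± 0.58 in T-cell mice (SD, n = 7). This difference of -2.19 did not pass, and Ppargc1b is named for it after its values were seen. Upward, the largest undifferentiated minus T-cell difference in the lists was 1.23, for the synthetase Ears2, and it did not pass either.

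Many member genes share their promoter region with a neighbour read in the other direction. In 22 of the 63 members with a window (34.9%, against 17.6% of the 7935 tested genes with a window) another gene started on the opposite strand within 500 bases. Mrpl46 and Mrps11 start 42 bases apart from each other, and their erythroid minus T-cell changes were 0.22 and -0.39 (limma adjusted p = 0.765 and 0.628). Mrps7 and Gga3, a sorting protein of the trans-Golgi network, start 224 bases apart, with changes of 0.98 and 0.59 (limma adjusted p = 0.0186 and 0.162). Mrps12 and Sars2, which charges the mitochondrial tRNA for serine, start 147 bases apart, with changes of 0.53 and 0.30 (limma adjusted p = 0.184 and 0.55). Mrpl43 and Twnk, the helicase named above, start 116 bases apart and changed by -0.12 and 0.63. In 14 members both genes of the pair were tested, and in none did the partner pass, against 10.3% of all genes. Mrpl46 and Mrps11 are counted as each other's partner, and so few pairs cannot show whether neighbours change together.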

How the data were processed

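Bead arrays of 15 RNA samples were used, 14 of them with a leukemia type, from 12 mice. The authors deposited, per the file headers, a mean bead intensity, a detection p-value, a bead count and the spread of the bead signal for each probe and array, not normalised between arrays; the member probes rested on 16 to 64 beads, with a median of 38. Processed log2 values were deposited too, for which the submitters' processing notes name limma and R 3.0.2. Its columns correlated with the values used here at 0.999978 or above, with a median absolute difference of 0.000814 and column medians of 4.81 to 4.83. The bead counts and bead spreads entered no test, and no genome build is given for the probes in the sources used here.

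Intensities were background-corrected with the detection p-values, offset by 16, quantile-normalised and put on the log2 scale (neqc of limma 3.58.1, R 4.3.3). Probes were kept where the detection p was under 0.05 on 3 or more labelled arrays, arrays of a mouse were averaged, and the probe with the highest mean stood for a gene. Mice were compared with lmFit and eBayes (type as the only term, two-sided, Benjamini-Hochberg over 10474 genes), and the script was tested on simulated data. Symbols were updated through RefSeq (GRCm38.p6): 20733 probes had a current symbol, 3677 were renamed, 226 kept an old one and 1061 had no match. Bead arrays have no read depth, and the number of arrays limits the precision. Members, gene lists, tests and alternatives were chosen with earlier results of these data known. Members named were those past the threshold, the largest changes short of it, the brightest, the dimmest and the most variable probes. For each list the 2 genes with the smallest adjusted p between erythroid and T-cell leukemia were named. Ppargc1b and Ears2 were added for their undifferentiated minus T-cell differences. The mouse numbers are shared by several mice, but only 2 and 5 occur in both the erythroid and the T-cell group. Deviations from the group means correlated at -0.113 for number 2 and 0.02 for number 5. Among erythroid mice only mouse 5-5 carries number 5, and deviations from the erythroid mean tie number 2 to it. Both values thus rest on that mouse and cannot decide whether mice that share a number are related. The main fit did not take the numbers as pairs, and the fit with the first title number as a replicate block is given below. The array without a type entered no comparison.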

Additional observations from a re-analysis of the deposited data

Results flagged for a closer look

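For the mean over the members and for each member named by rule, the erythroid and the T-cell mice were each searched for a mouse whose gap to its nearest neighbour was large for the whole range of the group (Dixon's test). In 5 of these 46 groups (10.9%) 1 mouse stood apart in this way, 3 times among erythroid mice and 2 times among T-cell mice. For unselected genes chance would give about 1 in 20, but these members were mostly named for their values, so that rate does not apply directly. Mrpl19 in T-cell mouse 5-1, at 8.94 against 4.44 to 6.53, fell short of the limit.

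Mrpl53 read 6.89 in erythroid mouse 2-3-2, while the other erythroid mice read 5.50 to 5.67. That array is one of the 2 weakest, and Mrpl53 still passed the test without them. Mrpl15 read 5.49 in erythroid mouse 5-5, below the 5.79 to 5.84 of the other erythroid mice, and the arrays of this mouse read 6.07 and 4.92. Mrpl38 read 7.89 in erythroid mouse 2-3-3, above the 7.41 to 7.48 of the others.

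In T-cell mouse 5-3, Mrpl49 read 7.78 against 8.67 to 9.00 in the other T-cell mice, and Mrps18b read 6.50 against 7.72 to 8.27. The same mouse had the lowest value of the T-cell mice for 38 of the 69 members and the lowest mean of the dividing-cell markers, 7.22. The part of either in these values was not tested.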

How the results depend on the processing

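Over 28 alternatives, Mrps7 passed in 19, Mrpl53 in 16, Mrpl15 in 11 and Mrpl51 in 8 (Mrpl53 and Mrpl15 were tested in 27), with a positive change in every alternative that tested them. Among these, the authors' processed table and the fit of T-cell and erythroid mice alone use nearly the same values as the fit reported, so their passes add little. The 4 genes higher in erythroid than in T-cell leukemia became 0 with median scaling and 1 with arrays as samples and the mouse as a random block (consensus correlation 0.315). They became 0 with the description number added to that array-level fit as a block, and 0 within numbers 1 to 8 and within 9 to 16. With the first title number as a replicate block the count was 0, and 109 of all genes were called. Leaving out each mouse in turn gave 1 to 5 higher and 0 to 1 lower: 1 without T-cell mouse 2, T-cell mouse 5 or erythroid mouse 5-5, and 2 without T-cell mouse 4-1, 4-2 or 5-3 or erythroid mouse 2-3-2 or 2-3-3. Without mouse 5-5 the gene that passed was Mrpl14, and none of the 4 did. The median change over members was -0.29 with median scaling, 0.07 with cyclic loess, 0.23 without the 2 weakest arrays and -0.18 to 0.13 when a mouse was left out. The strict filter asks for detection on all labelled arrays, the 2 weakest included. With it the median was 0.19 over 42 members, beside 0.11 over all genes. Undifferentiated minus T-cell, the median over members was 0.45 with median scaling. Undifferentiated minus erythroid, it was 0.73 with median scaling, -0.12 with the strict filter and -0.01 to 0.22 when a mouse was left out. Of all genes, 1075 were called, against 577 with no filter, 488 with the strict filter, 429 with median scaling, 0 and 179 within the description numbers, 1164 with the mouse as a random block, 1118 with the description number as a block, 591 without the 2 weakest arrays and 460 to 1474 when a mouse was left out. No member passed in an undifferentiated contrast in any alternative run. Signal over background limits the dim probes of Mrpl53 and Mrpl15 and the low readings of Mrpl19, and 1 mouse limits the undifferentiated group. The cause of these shifts was not tested.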

Other observations

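The array that carries no leukemia type and no mouse in its labels detected 10840 probes. Its mean log2 signal over the 69 members was 7.47. The members lay at a median of -0.15 from the mean of the T-cell mice, with an SD of 0.65, and 2 members were more than 1 below it and 2 more than 1 above.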
